A study of Mus musculus with 8 samples.

Results

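The genes described here are 8 components of the extrinsic, or death receptor, pathway of apoptosis in splenic CD8+ T cells: the ligands Fasl and Tnfsf10, the receptors Fas and Tnfrsf10b, the adaptor Fadd, the initiator caspase Casp8, its inhibitor-like relative Cflar, and the caspase inhibitor Xiap. They were taken by symbol from a table of 55291 gene rows, and all were found and were among the 16630 genes tested. CD8+ T cells were enriched on magnetic particles from spleens of naïve mice, and polyadenylated RNA was sequenced in 4 libraries labelled WT and 4 labelled ATF4 overexpression (ATF4OE here), with the genotype label ATF4 Tg/Tg. The design text names the mice ATF4Tg/Tg and E8IcreATF4Tg/Tg instead, names that read as the transgene without and with a Cre recombinase driven by a Cd8a enhancer, so WT is only a label here and both groups may carry the transgene. The labels give no strain, age, sex or treatment. They also do not tie libraries to individual animals, and p-values therefore describe the scatter among these libraries, which may be technical.

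Death receptors are surface proteins of the tumor necrosis factor receptor family that carry a death domain inside the cell. When FasL binds Fas, or TRAIL (the product of Tnfsf10) binds its receptor DR5 (the product of Tnfrsf10b), the adaptor FADD recruits procaspase-8, which activates itself there and then cleaves the executioner caspases, while cFLIP (the product of Cflar) competes for the same place. XIAP binds and blocks active caspases. In T cells this pathway removes activated and autoreactive cells, and FasL is also a weapon of killer cells. The transcription factor CHOP (Ddit3), which acts beside ATF4 in the integrated stress response, is known to induce the human DR5 gene, which makes the receptor genes of interest in cells with forced ATF4.

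Total estimated counts ran from 93478686 to 125974143 per library, so each member had between 263 and 25519.5 counts in a library. Libraries of replicates 1 and 2 stood apart from replicates 3 and 4 in both groups, and the names of their columns are also written differently; values within these 2 library sets are therefore given for each of the 8 members. In 4 libraries (WT replicates 1 and 4, ATF4OE replicates 1 and 2) fewer genes had 3 to 5 counts than 8 to 10. Fits without these 4 set WT replicates 2 and 3 against ATF4OE replicates 3 and 4. Group and library set are therefore partly mixed in those fits. Levels are CPM, counts divided by the scaled library size in megareads. Atf4 averaged 231 ± 76.4 CPM in WT against 328 ± 125 CPM in ATF4OE (SD, n = 4). It missed the test over all 8 libraries (adjusted p = 0.37, edgeR) and passed with the replicate number as a block (log2 fold change 0.48, adjusted p = 2.2e-04). The ATF4-dependent genes Ddit3 (log2 fold change 1.32 ± 0.16, SE) and Trib3 (5.84 ± 0.18) were higher. Of 14 CD8 T cell markers 7 were lower, with a median log2 fold change of -0.26. Each list of markers of other cell types had genes that were higher, among them 3 of 5 CD4 T cell, 1 of 8 dendritic cell and 5 of 8 platelet markers. In bulk RNA, a change in the share of a cell type and a change in RNA per cell cannot be told apart.

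Of the 8 members, 1 was higher in ATF4OE (Fasl), 2 were lower (Tnfrsf10b and Casp8) and 5 did not pass the test (edgeR quasi-likelihood test, Benjamini-Hochberg adjusted p below 0.05 over all genes tested). Of all genes tested, 14.1% passed, 9.16% higher and 4.89% lower. The groups did not overlap for Fasl and Casp8, as in 22.0% of all genes tested (13.3% with ATF4OE higher, 8.66% with ATF4OE lower). The median log2 fold change of the members was -0.04. The replicate block gave the same calls, and for none of the 8 did the change differ between the library sets by the interaction test. The plot of the members by library shows each value.

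**Figure D1:**
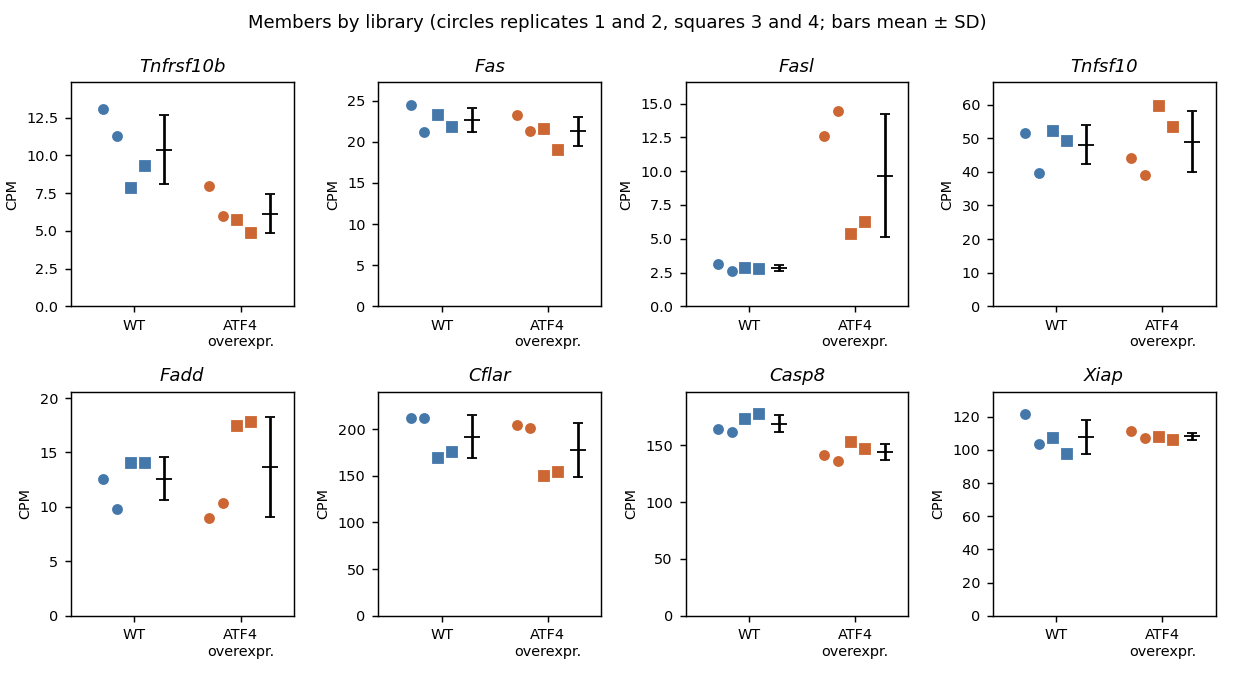
Level of each of the 8 genes in CPM (y axes, from 0) in the 4 WT and 4 ATF4OE libraries; circles are replicates 1 and 2, squares replicates 3 and 4, and the bars give mean ± SD. Fasl was between 2.61 and 3.12 CPM in WT and between 5.37 and 14.5 CPM in ATF4OE, and all 4 Casp8 values of ATF4OE lay under the lowest of WT.

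Fasl, the ligand of Fas, was the member with the largest change. It lies on chromosome 1, 161780689 to 161788495, minus strand (GENCODE M21, GRCm38). In WT its level was 3.12, 2.61, 2.86 and 2.80 CPM in replicates 1 to 4, and in ATF4OE it was 12.6, 14.5, 5.37 and 6.22 CPM. Every ATF4OE library was above every WT library, and replicates 1 and 2 of ATF4OE were the highest, whereas the WT libraries lay close together. Its log2 fold change was 1.76 ± 0.32 (SE), or 3.40-fold, with an adjusted p of 0.0050 (edgeR). Within replicates 1 and 2 it was 2.28 (adjusted p = 4.5e-04) and within replicates 3 and 4 it was 1.04 (adjusted p = 0.0098), and the difference between the sets did not pass the test (interaction -1.21 on the log2 scale, adjusted p = 0.073). Without the 4 libraries with few low counts the change was 1.08, and the call was lost (adjusted p = 0.053).

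Some markers of other cells that make FasL were also higher in ATF4OE, more of them within replicates 1 and 2 than within replicates 3 and 4. NK cell markers were called higher for 3 of 10 genes and lower for 0 by edgeR (8 and 1 at an unadjusted p below 0.05). Their summed level in replicates 1 to 4 was 257, 264, 377 and 379 CPM in WT and 612, 541, 355 and 351 CPM in ATF4OE. The sum was thus higher in ATF4OE within replicates 1 and 2 and lower within replicates 3 and 4. Eomes and Klrd1, which did not pass, made up much of the WT sum (104 and 153 CPM on average). Within replicates 1 and 2, 8 of the 10 were higher and 0 lower, whereas within replicates 3 and 4, 3 were higher and 1 lower. Over all 82 tested marker genes, 40 were higher and 2 lower within replicates 1 and 2. Within replicates 3 and 4, 42 of the 82 were higher and 12 lower. The 82 include 14 CD8 T cell markers, of which 0 were higher in either set. Of these 14, 2 were lower within replicates 1 and 2 and 10 within replicates 3 and 4. The fits of the library sets also called different numbers of all genes (closing section). Shares of all genes were not set beside these counts within a set. The counts therefore do not show whether the markers moved more than other genes. Klra9, an NK cell receptor, was at 1.81, 2.07, 4.13 and 4.47 CPM in WT and at 15.6, 14.7, 6.05 and 6.36 CPM in ATF4OE. In WT, Klra9 was higher in replicates 3 and 4 than in 1 and 2. Klra9 lost its call with the replicate block (adjusted p = 0.11). Gamma-delta T cell markers were higher in 3 of the 3 members found in the table (2 of 3 within replicates 3 and 4), with summed levels of 15.2 to 18.3 CPM in WT and 26.7 to 49.8 CPM in ATF4OE. Trdc, the constant segment of the delta chain, was at 16.7, 14.5, 15.5 and 17.8 CPM in WT and at 36.4, 45.5, 23.1 and 23.7 CPM in ATF4OE. No marker of these lists was at 0 in all 4 WT libraries, and the part of such cells in the Fasl result was not tested.

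**Figure D2:**
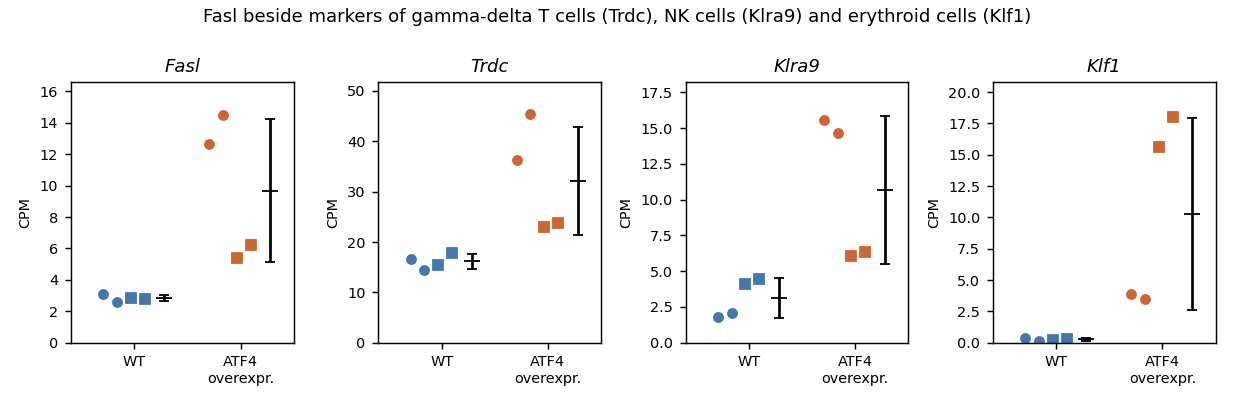
Levels in CPM (y axes, from 0) of Fasl and of markers of gamma-delta T cells (Trdc), NK cells (Klra9) and erythroid cells (Klf1) per library, with circles for replicates 1 and 2, squares for replicates 3 and 4 and bars for mean ± SD. Fasl, Trdc and Klra9 were highest in replicates 1 and 2 of ATF4OE, and Klf1 in replicates 3 and 4, at 15.6 and 18 CPM.

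Tnfsf10, the gene of TRAIL (chromosome 3, 27317028 to 27342427, plus strand), showed no such difference. It was at 51.5, 39.5, 52.2 and 49.2 CPM in WT and at 44.2, 39.0, 59.5 and 53.2 CPM in ATF4OE. The groups overlapped over most of their range, and both groups had their lowest value in replicate 2. Its log2 fold change was 0.03 ± 0.14 (SE, adjusted p = 0.94, edgeR), with -0.10 within replicates 1 and 2 and 0.15 within replicates 3 and 4.

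Tnfrsf10b, the single TRAIL receptor with a death domain in mice, was lower in ATF4OE. It lies on chromosome 14, 69767472 to 69784411, plus strand. It was at 13.1, 11.3, 7.80 and 9.31 CPM in WT and at 7.96, 6.0, 5.72 and 4.86 CPM in ATF4OE. The groups overlapped by 1 library, ATF4OE replicate 1, which was above WT replicate 3, and the other 3 lay under every WT library. The log2 fold change was -0.76 ± 0.21 (SE), or 0.592-fold (adjusted p = 0.039, edgeR). It was -0.77 within replicates 1 and 2 (adjusted p = 0.053) and -0.69 within replicates 3 and 4 (adjusted p = 0.028). The call was lost in 6 of 8 fits that left out 1 library, those without WT replicates 1, 2 or 4 or without ATF4OE replicates 2, 3 or 4 (adjusted p between 0.060 and 0.11), and without the 4 libraries with few low counts (-0.85, adjusted p = 0.11). In the same libraries Ddit3 rose from 20.4 ± 3.75 to 50.8 ± 9.93 CPM (SD, n = 4), with 20.8, 25.5, 18.5 and 16.9 CPM in WT and 58.5, 60.2, 41.2 and 43.4 CPM in ATF4OE.

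Fas itself (chromosome 19, 34290666 to 34327772, plus strand) stayed within the spread of its libraries. It was at 24.5, 21.2, 23.2 and 21.8 CPM in WT and at 23.3, 21.3, 21.6 and 19.0 CPM in ATF4OE. Of the ATF4OE libraries, 1 lay under the lowest WT library and 0 above the highest. The log2 fold change was -0.09 ± 0.09 (SE, adjusted p = 0.63, edgeR), and it was -0.0026 within replicates 1 and 2 and -0.15 within replicates 3 and 4.

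Casp8, the initiator caspase of the complex, was lower by a small amount. The gene lies on chromosome 1, 58795374 to 58847503, plus strand, beside Cflar (58711508 to 58758884, plus strand). Casp8 was at 165, 161, 173 and 177 CPM in WT and at 142, 137, 153 and 147 CPM in ATF4OE. All ATF4OE libraries were under all WT libraries, and in both groups replicates 3 and 4 were above replicates 1 and 2. The log2 fold change was -0.23 ± 0.07 (SE), or 0.854-fold (adjusted p = 0.044, edgeR). It was -0.20 within replicates 1 and 2 (adjusted p = 0.18) and -0.22 within replicates 3 and 4 (adjusted p = 0.033), and with the replicate block -0.23 (adjusted p = 0.0031). The call was lost in each of the 8 fits that left out 1 library (log2 fold changes from -0.25 to -0.20, adjusted p between 0.060 and 0.12) and without the 4 libraries with few low counts (-0.16, adjusted p = 0.35). The median of the CD8 T cell markers in the same fit was -0.26, and the part of the cell mixture in the Casp8 result was not tested.

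**Figure D3:**
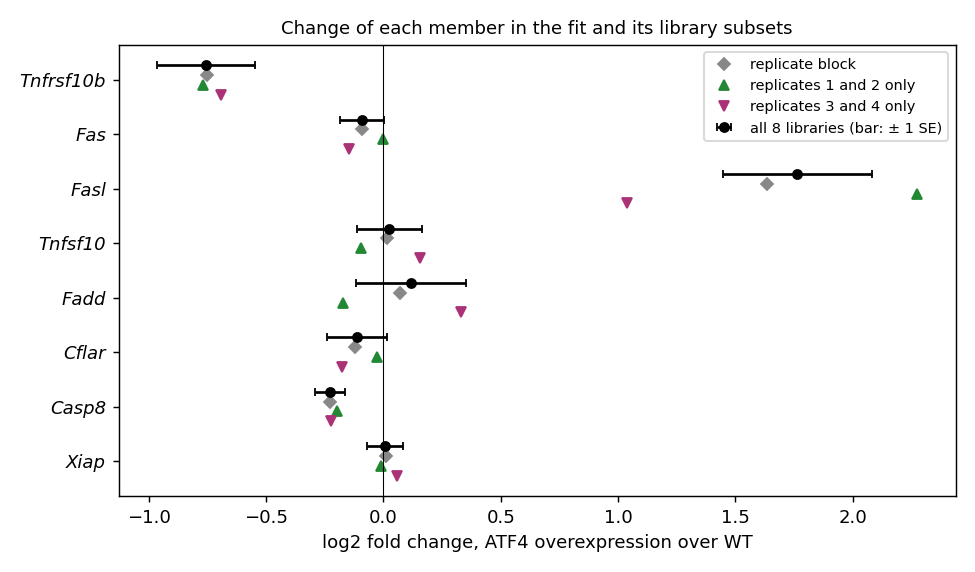
Log2 fold change of each member, ATF4OE over WT (x axis), over all 8 libraries (circles, bars ± 1 SE), with the replicate block (diamonds), and within replicates 1 and 2 (upward triangles) or 3 and 4 (downward triangles). Fasl, Tnfrsf10b and Casp8 lie on 1 side of zero in all 4 fits, as do Fas and Cflar, which did not pass the test. Tnfsf10, Fadd and Xiap change side between the library sets.

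Cflar, which encodes cFLIP, differed between library sets more than between groups. It was at 212, 211, 169 and 175 CPM in WT and at 204, 201, 150 and 154 CPM in ATF4OE. In both groups replicates 1 and 2 were above replicates 3 and 4, and the groups overlapped. Its change on the log2 scale was -0.11 ± 0.13 (SE, adjusted p = 0.66, edgeR), -0.03 within replicates 1 and 2 and -0.18 within replicates 3 and 4 (adjusted p = 0.070). The estimated counts of Casp8 were not whole numbers in 8 of 8 libraries and those of Cflar in 6 of 8 (more than 0.01 from a whole number). Whether reads shared with other genes moved these values was not tested.

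Fadd, the adaptor (chromosome 7, 144577318 to 144582463, minus strand), was at 12.5, 9.83, 14.0 and 14.0 CPM in WT and at 9.03, 10.4, 17.4 and 17.8 CPM in ATF4OE. Replicates 3 and 4 of ATF4OE were the 2 highest libraries and replicate 1 was the lowest of all. The log2 fold change was 0.12 ± 0.24 (SE, adjusted p = 0.83, edgeR), with -0.17 within replicates 1 and 2 and 0.33 within replicates 3 and 4 (adjusted p = 0.056). An antisense gene, Faddos, shares 239 exonic bases with Fadd and had a mean of 2.6 counts per library.

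Xiap, the caspase inhibitor (chromosome X, 42059679 to 42109656, plus strand), was the member with the smallest change. It was at 122, 104, 107 and 97.8 CPM in WT and at 111, 107, 108 and 106 CPM in ATF4OE. All 4 ATF4OE libraries lay inside the range of WT. On the log2 scale the change was 0.01 ± 0.08 (SE, adjusted p = 0.97, edgeR), -0.0084 within replicates 1 and 2 and 0.06 within replicates 3 and 4.

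Cflar was also set against the caspase it restrains, as a ratio of counts within each library, which does not depend on scaling. The ratio of Cflar to Casp8 was 1.29, 1.31, 0.978 and 0.990 in WT and 1.44, 1.47, 0.981 and 1.05 in ATF4OE. It followed the library sets, and the groups differed by 0.11 on the log2 scale (exact two-sided permutation test over 70 assignments, p = 0.54). The difference was 0.17 within replicates 1 and 2 and 0.046 within replicates 3 and 4. The test took no account of the library sets, so the spread between them enters its p-value. It cannot decide on a difference within the sets. Within replicates 1 and 2 the ATF4OE ratios lay above the WT ratios, and within replicates 3 and 4 the groups overlapped.

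**Figure D4:**
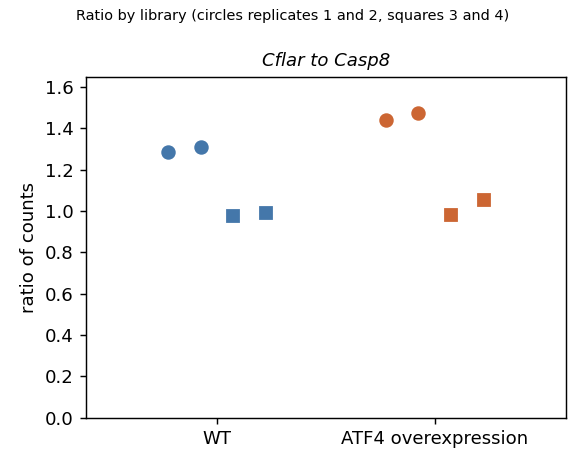
Ratio of estimated counts of Cflar to Casp8 (y axis, from 0) in each library, with circles for replicates 1 and 2 and squares for replicates 3 and 4. The ratio was between 1.29 and 1.47 in replicates 1 and 2 and between 0.978 and 1.05 in replicates 3 and 4.

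Levels of different genes were compared per kilobase of exon. In WT, Casp8 stood highest at 58.5 ± 2.53 CPM per kb (SD, n = 4), followed by Cflar at 15.2 ± 1.80, Xiap at 11.4 ± 1.07, Fas at 11.0 ± 0.71, Tnfsf10 at 9.14 ± 1.11, Fadd at 3.23 ± 0.50, Tnfrsf10b at 1.90 ± 0.42 and Fasl at 1.47 ± 0.11. Xiap and Fas, and Tnfrsf10b and Fasl, did not differ beyond their SD, and the other neighbours did. In ATF4OE the first 5 kept this order, with Casp8 at 49.9 ± 2.42 CPM per kb. Fasl came next at 4.99 ± 2.35, then Fadd at 3.50 ± 1.18 and Tnfrsf10b last at 1.13 ± 0.24. Fas and Tnfsf10, and Fasl and Fadd, did not differ beyond their SD there. Fasl moved from last place to above Fadd. Over the longest transcript in place of all exons, Tnfrsf10b came above Fadd in WT, at 3.26 ± 0.72 against 3.23 ± 0.50 CPM per kb. These levels did not differ beyond their SD.

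For each member that passed the test, the 3 genes most alike were taken, by Pearson correlation of log2 CPM over the 8 libraries among genes that averaged 10 CPM or more. These correlations hold differences between groups and library sets at once and are a description. Fasl was most like Trdc (r = 0.986), Rora (0.985), a transcription factor of innate-like lymphocytes, and Ssh3 (0.982), a cofilin phosphatase, out of 8764 genes, as many as for Tnfrsf10b. Tnfrsf10b was most like Sorl1 (r = 0.984), a sorting receptor, Fam118a (0.983) and Gtf2i (0.983), a general transcription factor. Casp8 was most like Ms4a6b (r = 0.990), a membrane protein of T cells, Tmem108 (0.989) and Uros (0.989), an enzyme of heme synthesis, out of 8763.

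The promoters of the 2 members that passed the test and have an entry in the RefSeq table are shown because ATF4 is a DNA-binding factor. Each is 250 bases before to 50 bases after the start of transcription, read 5′ to 3′ on the strand of the gene, with the transcribed bases in capitals (GRCm38.p6). The window of Fasl is chr1:161788446-161788745, minus strand, and that of Casp8 is chr1:58802252-58802551, plus strand. The Casp8 window lies inside the gene as annotated by GENCODE, after its first base.
Fasl: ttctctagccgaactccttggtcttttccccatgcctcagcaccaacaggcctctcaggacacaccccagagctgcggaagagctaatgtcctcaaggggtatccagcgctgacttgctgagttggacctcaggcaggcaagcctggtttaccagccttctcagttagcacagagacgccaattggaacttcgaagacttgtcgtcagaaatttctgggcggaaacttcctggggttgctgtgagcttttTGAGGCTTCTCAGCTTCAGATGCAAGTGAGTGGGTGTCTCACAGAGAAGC
Casp8: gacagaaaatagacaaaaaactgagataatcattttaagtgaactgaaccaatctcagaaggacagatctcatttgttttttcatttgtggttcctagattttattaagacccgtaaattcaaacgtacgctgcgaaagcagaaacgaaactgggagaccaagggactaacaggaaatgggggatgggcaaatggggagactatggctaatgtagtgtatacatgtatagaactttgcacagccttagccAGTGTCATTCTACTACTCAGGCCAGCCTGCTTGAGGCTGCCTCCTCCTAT
The core of the C/EBP-ATF response element, TGATGNAA, was searched on both strands (TTNCATCA on the other). It was in 0 of the 7 members with a window and in 2.80% of the 10967 tested genes with one. That says only that these letters are not in these windows. The windows of Casp8 and of Xiap lie inside the GENCODE genes, which begin at 58795374 and 42059679. Sequence before those starts was not searched.

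Further genes of the pathway were taken in 6 lists of 60 genes, of which 52 were tested. By edgeR 8 were higher and 5 lower, to be read against the 9.16% and 4.89% of all genes. With the replicate block 14 were higher and 9 lower, where that fit called 13.7% of all genes higher and 13.5% lower. Limma-voom gave 5 and 5 (8.26% and 4.91% of all genes), and DESeq2 gave 11 and 6 (11.6% and 5.43%). Counts by these fits in the lists that follow are to be read against the same shares. The plot of the other pathway genes shows their changes.

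**Figure D5:**
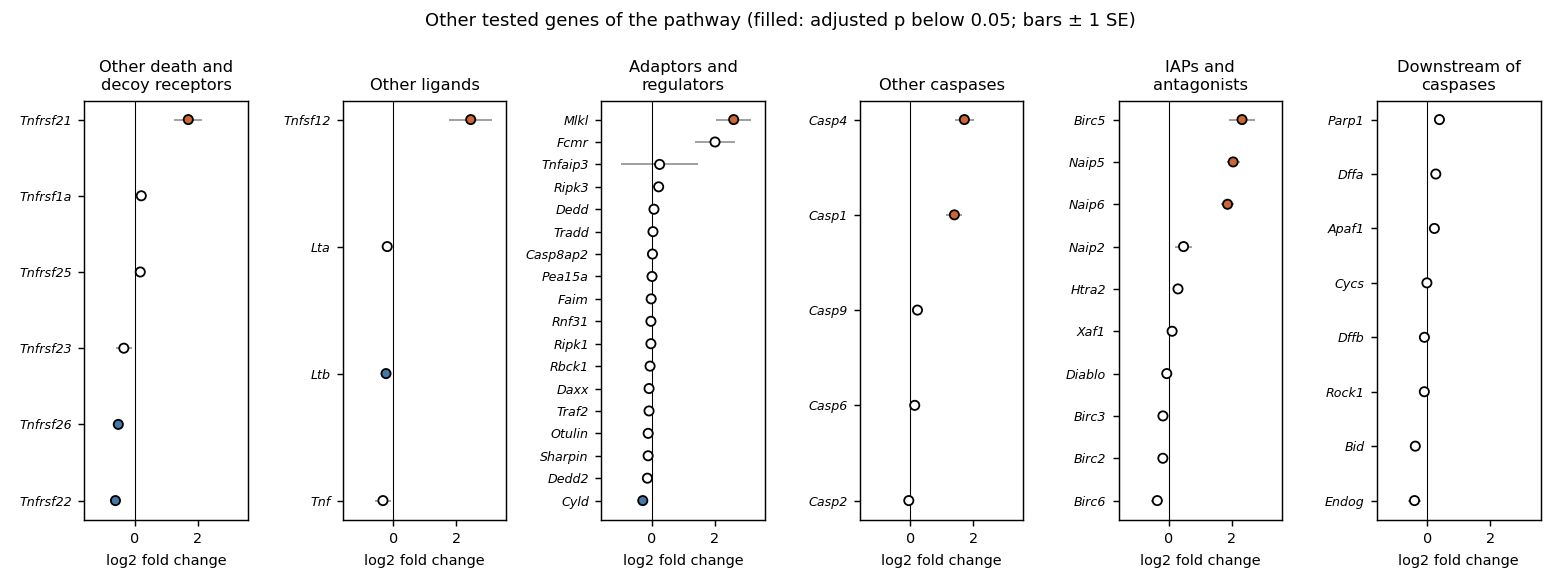
Log2 fold change, ATF4OE over WT (x axes), of the tested genes of 6 pathway lists, with bars of ± 1 SE; filled points passed the test (orange higher, blue lower), open points did not. Tnfsf15 is left out of the plot because it had 0 counts in all ATF4OE libraries; 2 caspases and 3 IAPs were higher.

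Among the other death and decoy receptors, 1 of 6 tested was higher and 2 were lower, with a median log2 fold change of -0.09. Tnfrsf22, a TRAIL receptor without a death domain, and its neighbour Tnfrsf26 were lower. Tnfrsf22 was at 28.9, 30.7, 31.4 and 31.9 CPM in WT and at 22.6, 20.8, 18.1 and 18.8 CPM in ATF4OE, a log2 fold change of -0.61 ± 0.09 (SE, adjusted p = 0.0021, edgeR), and the groups were well apart. Tnfrsf26 averaged 74.7 ± 6.87 and 52.0 ± 2.97 CPM (SD, n = 4), a log2 fold change of -0.52 (adjusted p = 0.0028). Both calls were lost within replicates 1 and 2 (adjusted p = 0.060 and 0.058), and that of Tnfrsf26 without the 4 libraries with few low counts (adjusted p = 0.086). These genes are close copies beside each other on chromosome 7, so reads may be divided between them and Tnfrsf23, which was at 2.06 and 1.62 CPM on average and did not pass (adjusted p = 0.44). Tnfrsf21, the death receptor DR6, was higher, at 1.06, 1.39, 2.60 and 3.53 CPM in WT and 3.63, 5.01, 9.70 and 9.66 CPM in ATF4OE (log2 fold change 1.70 ± 0.45, adjusted p = 0.031). Its call was lost without WT replicates 1, 2 or 3 or ATF4OE replicates 3 or 4 (adjusted p between 0.058 and 0.0835) and by limma-voom (adjusted p = 0.051). Tnfrsf1a, the main TNF receptor with a death domain, was at 33.8 and 39.0 CPM (log2 fold change 0.21, adjusted p = 0.25), and with the replicate block it passed (adjusted p = 0.043).

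Among 5 other ligands, 1 was higher and 2 were lower. Ltb, lymphotoxin beta, fell from 438 ± 16.4 to 373 ± 16.4 CPM (SD, n = 4; log2 fold change -0.23 ± 0.06 SE, adjusted p = 0.038, edgeR). Its call was lost whichever of the 8 libraries was left out (adjusted p from 0.052 to 0.12), and within either library set (adjusted p = 0.18 and 0.058). Tnfsf12, the gene of TWEAK, was at 0.472 and 2.62 CPM on average (log2 fold change 2.46, adjusted p = 0.039), and lost its call within replicates 3 and 4 (0.99, adjusted p = 0.15), by limma-voom (adjusted p = 0.054), without the 4 libraries with few low counts (adjusted p = 0.12) and without WT replicates 1, 2 or 3 or ATF4OE replicates 1, 2 or 3 (adjusted p between 0.055 and 0.10). Tnfsf15, the gene of TL1A, had 14 to 19 counts in each WT library and 0 in every ATF4OE library, at least 22.7-fold lower against a floor of 3 counts over the group (adjusted p = 0.024, and 0.089 with the replicate block). That bound covers counting error only. The call was lost in 6 of 8 fits without 1 library, with adjusted p between 0.059 and 0.0675 (edgeR). These were the fits without any 1 of the WT replicates or without ATF4OE replicate 3 or 4. The call was also lost within either library set (adjusted p = 0.22 and 0.070) and without the 4 libraries with few low counts (adjusted p = 0.12). ATF4OE replicates 1 and 2 are among those 4 libraries. Lta, lymphotoxin alpha, was at 12 and 10.5 CPM on average (adjusted p = 0.41). Tnf, the tumor necrosis factor, was at 15.3 and 12.2 CPM on average (log2 fold change -0.33, adjusted p = 0.49), and it passed as lower with the replicate block (-0.34, adjusted p = 0.028).

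Of 18 adaptors and regulators of the receptor complexes, 1 was higher, 1 was lower and 16 did not pass, with a median log2 fold change of -0.02. Cyld, a deubiquitinase that acts on RIPK1 complexes, was at 232, 224, 220 and 224 CPM in WT and at 195, 180, 181 and 181 CPM in ATF4OE. The groups were apart, and the log2 fold change was -0.29 ± 0.06 (SE, adjusted p = 0.011, edgeR), with a lost call within replicates 1 and 2 and without the 4 libraries with few low counts (adjusted p = 0.11 in both). Mlkl, the executioner of necroptosis, was at 0.893, 0.268, 0.525 and 0.667 CPM in WT and at 1.47, 1.70, 5.74 and 5.41 CPM in ATF4OE (log2 fold change 2.61, adjusted p = 0.012). It was highest in the replicates in which Klf1 was also highest, and within replicates 1 and 2 its call was lost (1.48, adjusted p = 0.23), as it was by limma-voom (adjusted p = 0.070). Ripk3, the kinase that activates MLKL, did not pass (0.22, adjusted p = 0.13) but did with the replicate block (adjusted p = 0.049). Fcmr, the IgM Fc receptor once named as a Fas inhibitor and abundant in B cells, was at 3.53 and 14.2 CPM on average (2.01, adjusted p = 0.076) and passed with the replicate block (adjusted p = 8.8e-05). B cell markers were called higher for 8 of 12 genes and lower for 0 (10 and 0 at an unadjusted p below 0.05), and their summed level was 616 to 798 CPM in WT and 630 to 1038 CPM in ATF4OE.

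Further caspases of the list were called higher for 2 of 5 tested genes and lower for 0 by edgeR, DESeq2 and limma-voom alike (at an unadjusted p below 0.05, 3 higher and 0 lower), with a median log2 fold change of 0.23. The inflammatory caspases Casp1 and Casp4 were low in these cells and higher in ATF4OE. Casp1 averaged 3.12 ± 0.88 and 8.24 ± 1.96 CPM (SD, n = 4; log2 fold change 1.4, adjusted p = 0.0056) and Casp4 1.22 ± 0.49 and 4.00 ± 0.43 CPM (1.72, adjusted p = 0.0049). The call of Casp1 was lost without the 4 libraries with few low counts (1.16, adjusted p = 0.11).

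The other caspases tested in this list did not pass. Casp9, the initiator of the mitochondrial pathway, had a log2 fold change of 0.23 (adjusted p = 0.13), Casp6 0.14 (adjusted p = 0.52) and Casp2 -0.05 (adjusted p = 0.85). Casp12 was too low to be tested and Casp14 had 0 counts in all 8 libraries.

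Of 10 tested IAPs and their antagonists, 3 were higher and 0 lower by edgeR, DESeq2 and limma-voom (3 and 1 at an unadjusted p below 0.05), with a median log2 fold change of 0.20; the replicate block called 3 higher and 3 lower, in a fit that called 13.5% of all genes lower. Naip5 and Naip6, sensors of bacterial proteins that carry the same BIR domains as XIAP, rose from 2.23 ± 0.48 to 9.23 ± 1.32 CPM (log2 fold change 2.05 ± 0.21 SE, adjusted p = 2.1e-04) and from 1.20 ± 0.13 to 4.38 ± 0.51 CPM (1.87, adjusted p = 4.8e-04). They are close paralogs, and reads may be divided between them. Birc5, survivin, a protein of dividing cells, was at 2.84, 2.45, 4.51 and 4.84 CPM in WT and at 9.99, 10.2, 27.3 and 26.1 CPM in ATF4OE (2.33, adjusted p = 0.0044). Birc5 was highest in replicates 3 and 4 of ATF4OE. Birc3, cIAP2, was at 73.9 and 65.0 CPM on average (-0.19, adjusted p = 0.069) and was lower with the replicate block (adjusted p = 0.018), as were Birc2 (adjusted p = 0.016) and Birc6 (adjusted p = 1.8e-04). The genes of this list that moved include NAIPs and survivin, which are not known as inhibitors of the Casp8 step.

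Myeloid markers, of cells that express Casp1, Casp4, Mlkl and the NAIP genes, were called higher for 6 of 12 genes and lower for 1, with summed levels of 160 to 260 CPM in WT and 263 to 447 CPM in ATF4OE. Csf1r, the macrophage growth factor receptor, was at 3.08, 1.27, 4.32 and 3.46 CPM in WT and at 13.8, 16.8, 25.7 and 24.6 CPM in ATF4OE. Erythroid markers, of a lineage with many dividing precursors, were called higher for 6 of 10 genes, with summed levels of 77.4 to 112 CPM in WT and 129 to 315 CPM in ATF4OE, and Klf1 went from 0.362, 0.139, 0.250 and 0.313 to 3.89, 3.51, 15.6 and 18 CPM. The part of these cells in the changes of caspases, Mlkl and IAPs was not tested.

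Downstream of the caspases, 0 of 8 genes passed in either direction by edgeR (2 higher and 1 lower at an unadjusted p below 0.05). DESeq2 called 1 higher and 1 lower, limma-voom 0 in either direction, and the replicate block 3 higher and 1 lower, where it called 13.7% and 13.5% of all genes. Bid, which carries the Casp8 signal to mitochondria, was at 29.3 and 22.4 CPM on average with no overlap between the groups (log2 fold change -0.38 ± 0.12 SE, adjusted p = 0.066, edgeR; 0.026 with the replicate block), and it was -0.58 within replicates 1 and 2 (adjusted p = 0.034) and -0.16 within replicates 3 and 4 (adjusted p = 0.31). Parp1, a caspase substrate, was at 116 and 152 CPM (0.38, adjusted p = 0.070; 5.9e-04 with the block), Dffa, the inhibitor of the apoptotic nuclease, had a log2 fold change of 0.27 (adjusted p = 0.16; 0.0067 with the block) and Apaf1, the scaffold of the apoptosome, 0.23 (adjusted p = 0.21; 0.024 with the block).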

How the data were processed

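RNA of 8 libraries was measured by sequencing. The values the authors deposited are estimated counts by gene symbol, and the submitters' processing notes name Salmon 1.4.0 and build GRCm38.p6. An annotation release, a strand setting and filters were not given in the sources used here. Values were mapped to samples by library name (0 columns unused) and rounded to whole numbers. Genes were tested with edgeR 4.0.16 in R 4.3.3 (quasi-likelihood, TMM, filterByExpr, robust dispersion, group as the only term), and p-values were adjusted over all 16630 genes tested. Standard errors come from the F statistic. CPM are counts over TMM-scaled library sizes. Coordinates and exon lengths are from GENCODE M21 (GRCm38) and promoters from RefSeq.

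Depth of at least 93478686 counts per library leaves sampling error small for the members. Replicates of the same number deviated together in all 4 pairs (correlation of deviations from group means 0.373 to 0.449 over 12407 genes). Different numbers of the same library set also did (0.22 to 0.365), and numbers of different sets deviated in opposite ways (-0.476 to -0.259), so much of this goes with the set. The replicate block is given where it changes the call of a gene of the pathway lists. The test was checked on data simulated without library sets. It called 51.1% of genes with a log2 change of 1 in size, 67.3% of those with 2 and 0.0568% of unchanged genes. A gene that did not pass may therefore still have changed.

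The members, lists, tests and alternatives were chosen with earlier results of these data known. Genes were named by rule: the 8 members, Atf4, Ddit3 and Trib3, up to 4 genes of each pathway list with the smallest p, the tested caspases of the lists, the 3 genes most alike to each called member, and up to 2 genes of each marker list; Tnfrsf23, Tnf, Birc2, Birc6, Casp12, Casp14 and Faddos were named outside it, after their values were seen. Alternatives (closing section) were other scalings, filters, tools (DESeq2 1.42.0, limma-voom of limma 3.58.1), blocks and library subsets. Some genes and a ratio that needs one of them are not reported here.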

Additional observations from a re-analysis of the deposited data

Results flagged for a closer look

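The difference between the groups depended on the library set in 12 of the 82 tested marker genes, 8 of them NK cell markers. The test was that of the interaction (edgeR, adjusted p below 0.05 over all genes), which called 166 of all 16630 genes tested. The checks that follow took 54 genes named by the rule, without those named only as most alike to a called member. Of these 54 genes, 4 were called by the interaction test. The interaction was -2.43 on the log2 scale for the NK cell receptor Klra9 and -2.57 for Tyrobp, an adaptor of NK and myeloid receptors. It was -2.66 for Itgax, an integrin of dendritic and NK cells, and 2.09 for Car1, an erythroid carbonic anhydrase. Negative values mean a larger rise in replicates 1 and 2. No member of the death receptor set was among them. In 3 of 108 groups of 4 libraries, 1 library lay far from the other 3 in ATF4OE: Cyld was highest at 195 CPM, Birc3 highest at 66.7 CPM and Ripk3 lowest at 42.4 CPM. Chance flags about 1 in 20 such groups.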

How the results depend on the processing

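The replicate block, the fit that pairs same-numbered libraries, changed no member's call, but among all genes it gave 2237 genes called lower, and 14 higher and 9 lower among the pathway genes. With the library set as a block there were 2327 genes called higher and 1927 lower, and 14 and 10 among the pathway genes; DESeq2 called 2331 higher, and limma-voom called 5 pathway genes higher. Within replicates 1 and 2, 528 genes were lower, 0 members and 1 pathway gene lower, and log2 fold changes were -0.77 for Tnfrsf10b and -0.20 for Casp8 (calls lost), and -0.10 for Tnfsf10, -0.17 for Fadd and -0.0084 for Xiap (direction turned, none called). Within replicates 3 and 4, 2434 genes were higher and 1365 lower, and Casp2 was at 0.027. Without the 4 libraries with few low counts 333 genes were lower, 0 members higher, 0 members lower and 1 pathway gene lower. Changes there were -0.85 for Tnfrsf10b, 1.08 for Fasl and -0.16 for Casp8 (calls lost), -0.11 for Atf4 and 0.077 for Casp2 (turned). That fit set WT replicates 2 and 3 against ATF4OE replicates 3 and 4, so it partly mixed group with library set. Atf4 was at 0.59 within replicates 1 and 2 and at 0.41 within replicates 3 and 4. Casp8 also lost its call with RLE (-0.21), upper-quartile factors (-0.19) and no filter (-0.23), leaving 1 member lower in each; no filter left 3 pathway genes lower. Leaving out 1 library gave -0.91 to -0.63 for Tnfrsf10b, -0.25 to -0.20 for Casp8, -0.081 to 0.12 for Tnfsf10, -0.035 to 0.27 for Fadd, -0.037 to 0.070 for Xiap and -0.10 to 0.043 for Casp2, with 518 to 677 genes lower, 0 to 1 members lower and 3 to 4 pathway genes lower. By longest transcript, WT levels per kb were 3.26 for Tnfrsf10b, 13.9 for Fas, 29.2 for Cflar, 65.4 for Casp8 and 15.8 for Xiap. The tally of other named genes covers 46, without those named only as most alike to a called member. For these 46, 761 of 873 comparisons kept direction and side of the threshold, 69 lost a call, 39 gained one and 4 turned. Causes were not tested, and the subsets also hold fewer libraries.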
